A study of Mus musculus with 6 samples.

Results

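The glutathione S-transferases examined here were 10 genes of 5 classes of these enzymes, namely Gsta2, Gsta3 and Gsta4 of the alpha class, Gstm1, Gstm2 and Gstm5 of the mu class, Gstp1 of the pi class, Gstt1 and Gstt2 of the theta class and Gsto1 of the omega class. They were taken by gene symbol, and 15 of the 46621 probes on the array, or 10 of its 32291 symbols, belonged to them. The genes were chosen by family with their log2 fold changes between the groups already known, so their values are given as a description and carry no test. The study compared 3 samples of Klf4-null mouse embryonic fibroblasts (Klf4 -/-) with 3 samples of wild-type ones (Klf4 +/+), all of strain C57Bl/6 and of age 13 days per the labels, each hybridised to 1 Illumina bead array. Klf4 is a zinc-finger transcription factor, and nothing beyond the Klf4 genotype was given as differing between the groups. The labels number the replicates without naming separate embryos or cultures, so p-values measure the spread between these samples only, which may be technical.

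Cytosolic glutathione S-transferases join the thiol of glutathione to electrophiles, such as lipid aldehydes, quinones, epoxides and many drugs, and so make them soluble and ready for export. The alpha, mu, pi and theta classes differ in the substrates they prefer, and the omega class instead acts mainly as a thiol transferase and reductase. In liver and other tissues many of the genes are induced through the antioxidant response element, to which Nrf2 binds with a small Maf protein.

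All values are the authors' normalized intensities on a linear scale, and a probe was taken as measured when it lay above a background floor on at least 3 of the 6 arrays. The floor was between 54.0 and 54.1 on each array, just above the array medians of 51.7 to 51.8. Of the 3 Klf4 probes, ILMN_1241903 averaged 43.4 ± 3.55 in null and 99.04 ± 3.61 in wild-type cells (SD, n = 3 each), and ILMN_1221264 likewise lay above background on every wild-type and no null array. The brightest Klf4 probe, ILMN_2593684, ran the other way, with 715 ± 19.2 in null and 426 ± 60.03 in wild-type cells. Where these probes lie on the disrupted gene is not given in the sources used here, so the brightest probe does not check the labels. The fibroblast markers summed to 39214 to 41837 on the null and 34485 to 37840 on the wild-type arrays, and of the 9 genes 8 were above background on every null array and 9 on every wild-type array. The hepatocyte markers summed to 490 to 530.1 on the null and 475 to 518 on the wild-type arrays. Of the 6 genes, 3 were above background on every null array and 2 on every wild-type array. Alb and Serpina1a were above background on no array. Epcam, Krt8 and Krt19 of the epithelial list, Ptprc, Adgre1 and Lyz2 of the macrophage list, Tek of the endothelial list, Myod1 and Des of the muscle list and Fabp4 and Plin1 of the adipocyte list were also above background on no array. The erythroid markers summed to 154 to 161 on the null and 171 to 181 on the wild-type arrays, and the muscle markers to 205 to 217 on the null and 225 to 288 on the wild-type arrays. The sums of the epithelial, macrophage, endothelial and adipocyte lists were at most 446 and overlapped between the groups. On every null array, 2 of 3 erythroid, 1 of 5 macrophage, 1 of 4 endothelial and 1 of 4 muscle genes were above background. The counts on every wild-type array were the same, except for 2 endothelial genes and 1 adipocyte gene. No epithelial gene was above background on every array of either group, and no adipocyte gene on every null array. A probe of Xist, ILMN_2475156, averaged 260 in null and 70.2 in wild-type cells, and a probe of the Y-linked gene Kdm5d, ILMN_1224210, averaged 43.1 in null and 122 in wild-type cells. This Xist probe was at least 238 on every null and at most 74.3 on every wild-type array. The Kdm5d probe was at most 47.3 on every null and at least 108 on every wild-type array. The other probe of each gene was above background on no array. Sex, as these genes mark it, and genotype therefore cannot be told apart in these samples. The part of the marker and sex-linked differences in the transferase values was not tested.

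Of the 15 probes, 13 were measured, and they did not all run the same way. At an adjusted p under 0.05 over all measured probes (limma), 3 of the 13 were higher and 5 lower in Klf4-null cells, and 5 were not called, in a comparison that called 38.9% of all 21824 measured probes, 19.0% higher and 19.9% lower. The groups did not overlap for 10 of the 13, with null above wild type for 4 and below it for 6, against 47.3% of all measured probes. Probes called and at least 2-fold lower in null cells numbered 5 of the 13, against 2.89% of all measured probes. The median log2 fold change of the 13 was -0.12. In cultured cells sampled in bulk, fewer cells of a kind that carries a transcript and less of that transcript per cell cannot be told apart.

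**Figure D1:**
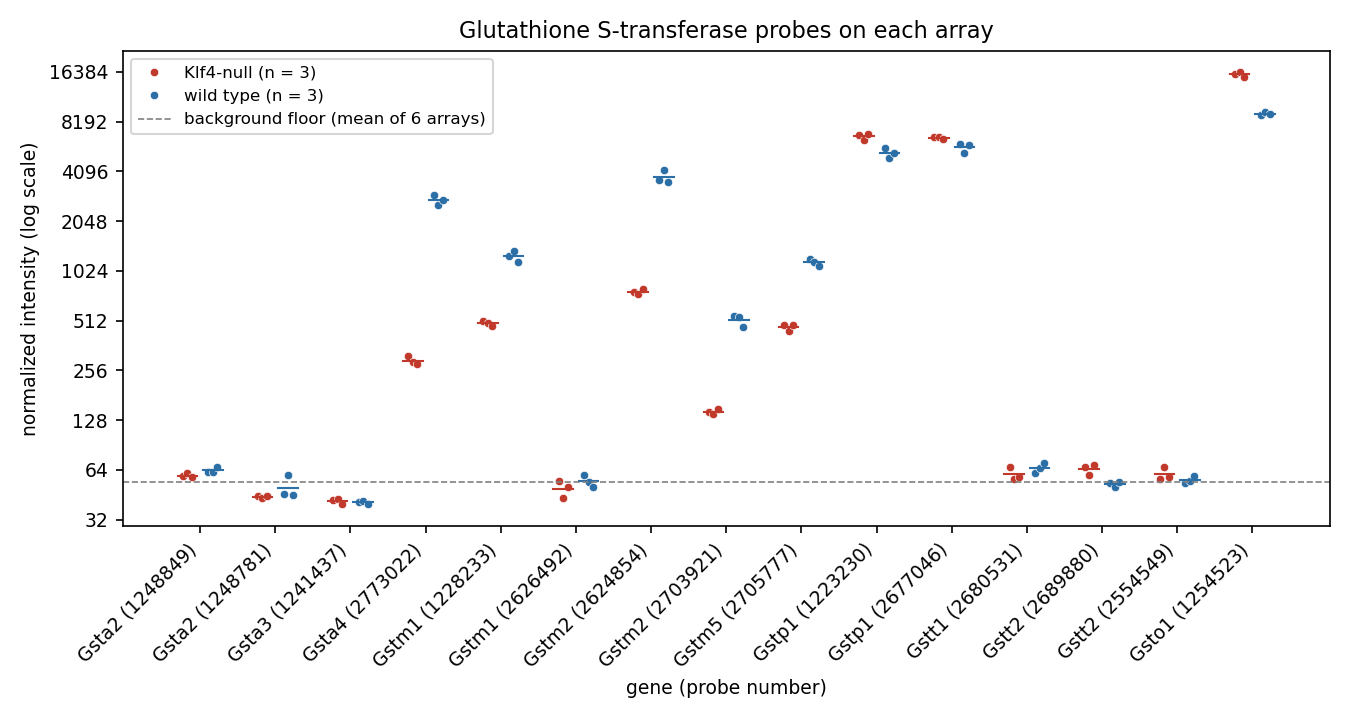
Normalized intensity (vertical axis, log scale) of each of the 15 probes of the 10 genes on every array, with 3 Klf4-null arrays (red) left of 3 wild-type arrays (blue), the mean of the log2 values as a short bar and the mean background floor dashed. Gsta4, Gstm2, Gstm5 and the brighter Gstm1 probe sit far lower in null cells, Gsto1 sits higher, and the Gsta2, Gsta3, Gstt1, Gstt2 and dimmer Gstm1 probes lie near the floor.

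The alpha-class gene Gsta4 had the largest difference among the 10 genes. It encodes the transferase that is best known for conjugating 4-hydroxynonenal, an aldehyde formed when membrane lipids are oxidised. Its probe ILMN_2773022 read 311, 285 and 281 on the Klf4-null arrays, against 2927, 2547 and 2733 on the wild-type arrays. Every null array lay far below every wild-type array, and all null values remained above background. The mean intensity was 292 ± 16.2 in null and 2736 ± 190.3 in wild-type cells (SD, n = 3 each), a 9.36-fold lower level in null cells (log2 fold change -3.23, SE 0.08). Counted from the most negative log2 fold change among the 21824 measured probes, it had rank 53. When the mode of each array was subtracted as background, which was tried after the data had been seen, the ratio was 10.9-fold.

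The other alpha-class genes were dim. Gsta2 and Gsta3 are transferases abundant in liver, and Gsta3 in the mouse is known for conjugating aflatoxin epoxide. Gsta2 probe ILMN_1248849 read 58.3, 61.1 and 57.6 on the null arrays, against 61.8, 61.9 and 67.0 on the wild-type arrays. The groups did not overlap, but the gap between them was smaller than the spread within the wild-type group, and the probe was not called (log2 fold change -0.11, SE 0.08). The second Gsta2 probe, ILMN_1248781, read 44.6, 43.2 and 44.2 on the null arrays and 45.9, 59.9 and 45.1 on the wild-type arrays, so that only 1 wild-type array was above background. Gsta3 was above background on no array, at 39.8 to 42.8 on the null and 39.6 to 41.6 on the wild-type arrays, and neither of these last 2 probes was tested.

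In the mu class, all 3 genes had at least 1 probe that was lower in Klf4-null cells. Mu-class enzymes conjugate epoxides, quinones and other aromatic electrophiles, and the genes stand side by side on chromosome 3. Their sequences are alike, so a probe may read more than the gene it is named for, and which gene each signal came from is uncertain. Gstm2 probe ILMN_2624854 read 767, 739 and 791 on the null arrays, against 3614, 4165 and 3533 on the wild-type arrays. The groups lay far apart, with means of 766 ± 25.9 in null and 3771 ± 344 in wild-type cells, a 4.91-fold lower level in null cells (log2 fold change -2.30, SE 0.08).

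The second Gstm2 probe, ILMN_2703921, ran the same way at lower intensity. It read 143, 139.9 and 148 on the null arrays, against 543, 541 and 466 on the wild-type arrays. The level was 3.59-fold lower in null cells (log2 fold change -1.84, SE 0.08), a smaller ratio than that of the brighter probe. With the array mode subtracted the 2 probes came closer, at 4.78-fold for ILMN_2703921 and 5.16-fold for ILMN_2624854.

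Gstm1 and Gstm5 were lower by similar factors. Gstm1, a mu transferase also known to bind the stress kinase ASK1, read 511, 494 and 476 with probe ILMN_1228233 on the null arrays, against 1254, 1354 and 1155 on the wild-type arrays. Its mean was 2.54-fold lower in null cells (log2 fold change -1.34, SE 0.08). The second Gstm1 probe, ILMN_2626492, lay at background, with 54.8, 43.3 and 50.2 on the null and 59.8, 54.1 and 50.6 on the wild-type arrays. The groups overlapped there, and that probe was not called (log2 fold change -0.15, SE 0.10), and at this level it gives no ratio to set beside the brighter probe. Gstm5 probe ILMN_2705777 read 481, 442 and 483 on the null arrays, against 1201, 1165 and 1093 on the wild-type arrays. No null array came near a wild-type one, and the level was 2.46-fold lower in null cells (log2 fold change -1.30, SE 0.08).

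The genes of the mu cluster lie in the order Csf1, Eps8l3, Gstm5, Gstm7, Gstm6, Gstm3, Gstm2, Gstm1, Gstm4, Ampd2, Gnat2 and Gnai3, from the colony-stimulating factor gene Csf1 to the G protein gene Gnai3 (RefSeq annotation of GRCm38.p6). Gstm6, which was not among the 10 genes, was lower in null cells as well with its brighter probe, ILMN_2641807, at 266 ± 12.2 in null and 614 ± 29.05 in wild-type cells (log2 fold change -1.21, SE 0.08, adjusted p = 2.5e-08). Its dimmer measured probe, ILMN_1219305, was at background in both groups (log2 fold change -0.04, adjusted p = 0.749). Gstm3, Gstm4 and Gstm7 were above background on too few arrays to be tested. Around the cluster, Csf1 was not called (log2 fold change 0.27, adjusted p = 0.0566), nor was the AMP deaminase gene Ampd2 (log2 fold change 0.18, adjusted p = 0.123). Csf1 and Ampd2 were named for their place and after their values had been seen.

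**Figure D2:**
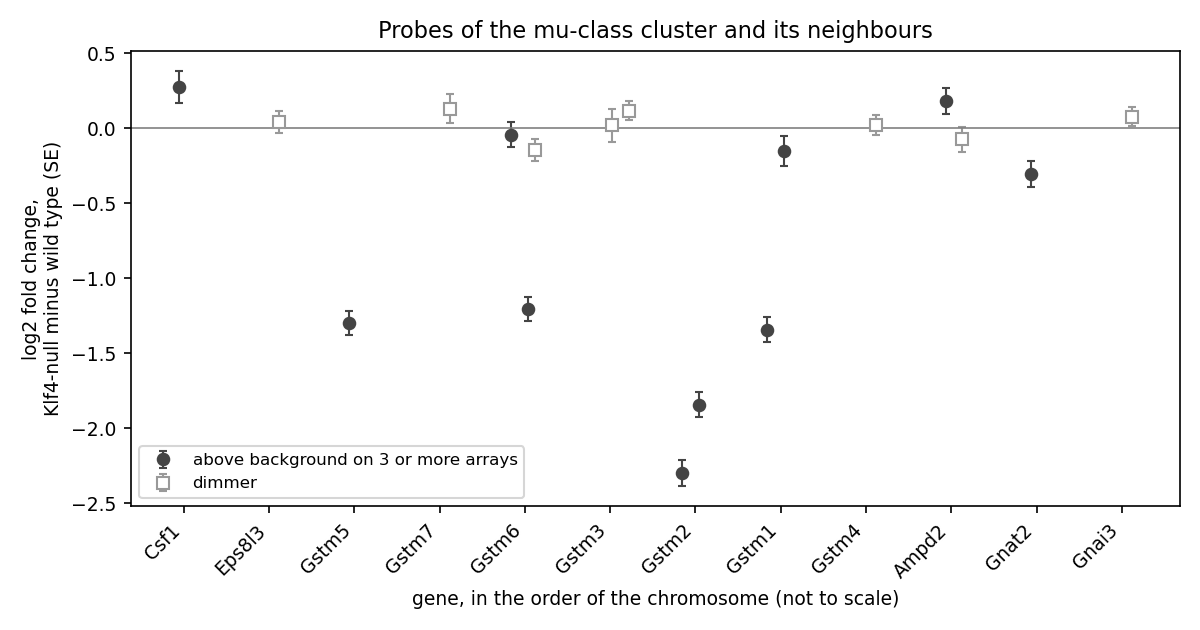
Log2 fold change, Klf4-null minus wild type, with its SE (vertical axis) for every probe of the mu-class cluster and its neighbours in chromosomal order (horizontal axis, not to scale). Probes above background on 3 or more arrays are filled circles and dimmer ones open squares. Probes at -1.21 or below belong to Gstm5, Gstm6, Gstm2 and Gstm1, while the filled points of the flanking genes Csf1, Ampd2 and Gnat2 lie at 0.27, 0.18 and -0.30.

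The promoters of the 3 lower mu genes are shown with those of Gstp1 and Gsto1, the brighter of the genes with a higher probe (RefSeq, GRCm38.p6, 250 bases before to 50 after the start site, 5′ to 3′ on the gene's strand). Capitals mark matches, on either strand, to the antioxidant response core TGACNNNGC, the AP-1 motif TGACTCA, the CACCC motif CCACCC, which Kruppel-like factors bind, and the GC box GGGCGG.
Gstm5 (chr3:107895604-107895903, plus strand): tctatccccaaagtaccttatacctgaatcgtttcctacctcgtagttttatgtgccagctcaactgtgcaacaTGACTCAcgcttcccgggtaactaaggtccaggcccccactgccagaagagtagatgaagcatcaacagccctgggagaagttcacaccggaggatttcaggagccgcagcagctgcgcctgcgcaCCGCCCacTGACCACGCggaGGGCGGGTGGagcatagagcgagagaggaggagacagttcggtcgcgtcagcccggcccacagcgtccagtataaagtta
Gstm2 (chr3:107986371-107986670, minus strand): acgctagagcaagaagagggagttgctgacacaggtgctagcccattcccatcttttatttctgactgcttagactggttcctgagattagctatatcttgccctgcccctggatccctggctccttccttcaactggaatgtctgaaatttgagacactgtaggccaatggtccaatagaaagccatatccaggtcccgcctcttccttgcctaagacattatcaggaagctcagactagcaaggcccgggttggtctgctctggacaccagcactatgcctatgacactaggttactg
Gstm1 (chr3:108017924-108018223, minus strand): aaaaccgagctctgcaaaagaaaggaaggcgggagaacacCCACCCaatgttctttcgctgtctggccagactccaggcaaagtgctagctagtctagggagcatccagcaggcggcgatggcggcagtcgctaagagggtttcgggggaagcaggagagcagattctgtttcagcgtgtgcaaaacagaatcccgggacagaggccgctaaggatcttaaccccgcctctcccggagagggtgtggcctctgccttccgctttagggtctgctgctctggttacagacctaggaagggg
Gstp1 (chr19:4037863-4038162, minus strand): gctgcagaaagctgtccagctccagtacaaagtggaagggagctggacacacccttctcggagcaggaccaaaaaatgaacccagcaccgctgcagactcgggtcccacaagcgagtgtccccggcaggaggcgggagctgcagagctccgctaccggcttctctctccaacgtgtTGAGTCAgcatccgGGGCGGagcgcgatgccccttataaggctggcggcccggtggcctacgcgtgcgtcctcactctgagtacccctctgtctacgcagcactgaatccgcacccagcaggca
Gsto1 (chr19:47854723-47855022, plus strand): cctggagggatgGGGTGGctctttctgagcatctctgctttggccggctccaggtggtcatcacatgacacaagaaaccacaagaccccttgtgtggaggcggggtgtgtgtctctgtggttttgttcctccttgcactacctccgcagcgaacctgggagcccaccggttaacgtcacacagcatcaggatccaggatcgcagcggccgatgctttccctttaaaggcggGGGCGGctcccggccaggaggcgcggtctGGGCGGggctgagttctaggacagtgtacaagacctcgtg

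Promoters were found for 8 of the 10 genes, Gsta4 and Gstt2 not being among them. The Gstm5 window held all 4 motifs, with the antioxidant response core 42 bases and the AP-1 motif 176 bases before the start site, and its CACCC motif overlapped a GC box. The Gstm2 window held none of the 4, and the Gstm1 window shown held a single CACCC motif, 210 bases before the start. A second Gstm1 window, not shown (chr3:108017769-108018068), held none of the 4. The Gstp1 window held an AP-1 motif 74 bases and a GC box 60 bases before the start, and the Gsto1 window a CACCC motif and a pair of GC boxes. Over the 8 genes, the antioxidant response core was found in 2 (Gsta3 and Gstm5), against 14.0% of all 27025 genes with a promoter, and the AP-1 motif in 2, against 5.95%. The CACCC motif was found in 4 of the 8, against 34.0%, and the GC box in 3, against 38.2%. Aligned end to end, the mu promoters were 46.5 to 47.0% identical to each other over 5 pairs, within the range of 43.1 to 51.4% over the 30 other pairs. A match is a string of letters and shows no bound factor. Only the exact letters given for each of the 4 motifs were searched, so variant or shorter forms were not counted. A window without a match may therefore still hold such a form. The shorter string CACCC, for example, also lies outside the counted matches in both Gstm1 windows (as gggtg) and in the Gstp1 window.

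Gsto1 was the brightest of the 15 probes and was higher in Klf4-null cells. Its product, omega-class transferase, reduces dehydroascorbate and methylated arsenic species and removes glutathione from proteins. Probe ILMN_1254523 read 15929, 16269 and 15228 on the null arrays, against 8988, 9414 and 9050.1 on the wild-type arrays. All null arrays lay above all wild-type arrays, and the level was 1.73-fold higher in null cells (log2 fold change 0.79, SE 0.08). Gsto2, its neighbour and the other omega-class gene, ran the other way with probe ILMN_2601758, at 52.3 ± 1.69 in null and 112 ± 4.43 in wild-type cells (log2 fold change -1.09, SE 0.08, adjusted p = 5.3e-08). Only 1 of the 3 null arrays had Gsto2 above background.

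Gstp1 was bright on both of its probes and slightly higher in null cells. The pi-class enzyme is the main transferase of many cultured and proliferating cells and also binds the stress kinase JNK. The mouse genome holds the near-identical gene Gstp2, and these probes may read either. Probe ILMN_1223230 read 6786, 6368 and 6864 on the null arrays, against 5694, 4934 and 5275 on the wild-type arrays. The groups did not overlap, and the level was 1.26-fold higher in null cells (log2 fold change 0.33, SE 0.08). Probe ILMN_2677046 read 6651, 6580.4 and 6412 on the null arrays, against 6032, 5314 and 5878 on the wild-type arrays. It was 1.14-fold higher without overlap and was not called (log2 fold change 0.19, SE 0.08).

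The theta-class genes were close to background. Theta transferases act on small halogenated compounds and on sulfate esters. Gstt1 probe ILMN_2680531 read 66.8, 56.6 and 57.9 on the null arrays and 61.1, 65.3 and 70.0 on the wild-type arrays. The groups overlapped, and it was not called (log2 fold change -0.12, SE 0.09). Gstt2 probe ILMN_2689880 read 66.9, 59.3 and 68.9 on the null arrays, against 53.5, 50.3 and 54.2 on the wild-type arrays. It was called higher in null cells (log2 fold change 0.30, SE 0.08), but only 1 wild-type array was above background. The other Gstt2 probe, ILMN_2554549, overlapped between the groups at 56.4 to 66.7 in null and 53.3 to 58.9 in wild-type cells and was not called. Their neighbour Gstt3, a brighter gene of the same class, averaged 424 ± 30.2 in null and 466 ± 38.8 in wild-type cells and did not pass (log2 fold change -0.14, adjusted p = 0.268).

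The differences of Gsta4, Gsto1 and the bright mu probes were large beside the spread between arrays, and those of the Gstp1 probes were smaller. Over the 8 probes with a mean above 100 in a group, the coefficient of variation within a group ran from 1.87 to 9.12%. Leaving out any 1 array, the log2 fold change of Gsta4 stayed between -3.28 and -3.18, that of the brighter Gstm2 probe between -2.34 and -2.22, and that of Gsto1 between 0.77 and 0.82. That of Gstp1 probe ILMN_1223230 moved between 0.28 and 0.39.

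Among the 3 probes whose levels over the 6 arrays most resembled those of Gsta4, by the distance between centred log2 values among 11731 probes above background on all arrays, were those of Slco2a1, a prostaglandin transporter, and Zfp521, a zinc-finger regulator. Slco2a1 (distance 0.23) averaged 76.1 ± 3.13 in null and 705 ± 66.0 in wild-type cells. Zfp521 (distance 0.34) averaged 60.0 ± 7.64 in null and 652 ± 53.8 in wild-type cells. Over 6 arrays in 2 groups, such a distance is given as a description only.

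Among the other glutathione transferase genes, 15 of 19 listed had a probe, 8 were measured, 1 was higher and 4 were lower in null cells, with a median log2 fold change of -0.35, against 19.3% of all 16212 measured genes higher, 20.6% lower and a median of -0.03. Besides Gstm6 and Gsto2, Gstz1 was lower. It encodes the zeta-class isomerase of tyrosine breakdown and averaged 363 ± 8.79 in null and 782 ± 36.4 in wild-type cells (log2 fold change -1.11, SE 0.08, adjusted p = 4.7e-08). Mgst3, a microsomal enzyme, averaged 819 ± 126 in null and 1191 ± 152 in wild-type cells with its brightest probe, ILMN_2615035 (log2 fold change -0.54, SE 0.12, adjusted p = 1.8e-03). A second Mgst3 probe, ILMN_1238479, was also lower (adjusted p = 2.3e-03), and the third, ILMN_1241156, did not pass (adjusted p = 0.507).

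Mgst1, a microsomal transferase, was higher by at least 1.06-fold, at 57.6 ± 2.41 in null and 45.4 ± 6.62 in wild-type cells, where it was above background on no array (adjusted p = 0.0115). Its call was lost without wild-type replicate 1 (adjusted p = 0.0572) and when each probe's own variance was used (adjusted p = 0.117), the lowest adjusted p over its alternatives being 7.2e-04. Mgst2 (log2 fold change -0.16, adjusted p = 0.247) and Gstcd, with its brightest probe (log2 fold change 0.01, adjusted p = 0.921), did not pass. Gsta1, Gstk1, Gstt4 and Hpgds were, like Gstm3, Gstm4 and Gstm7, too dim to be tested.

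**Figure D3:**
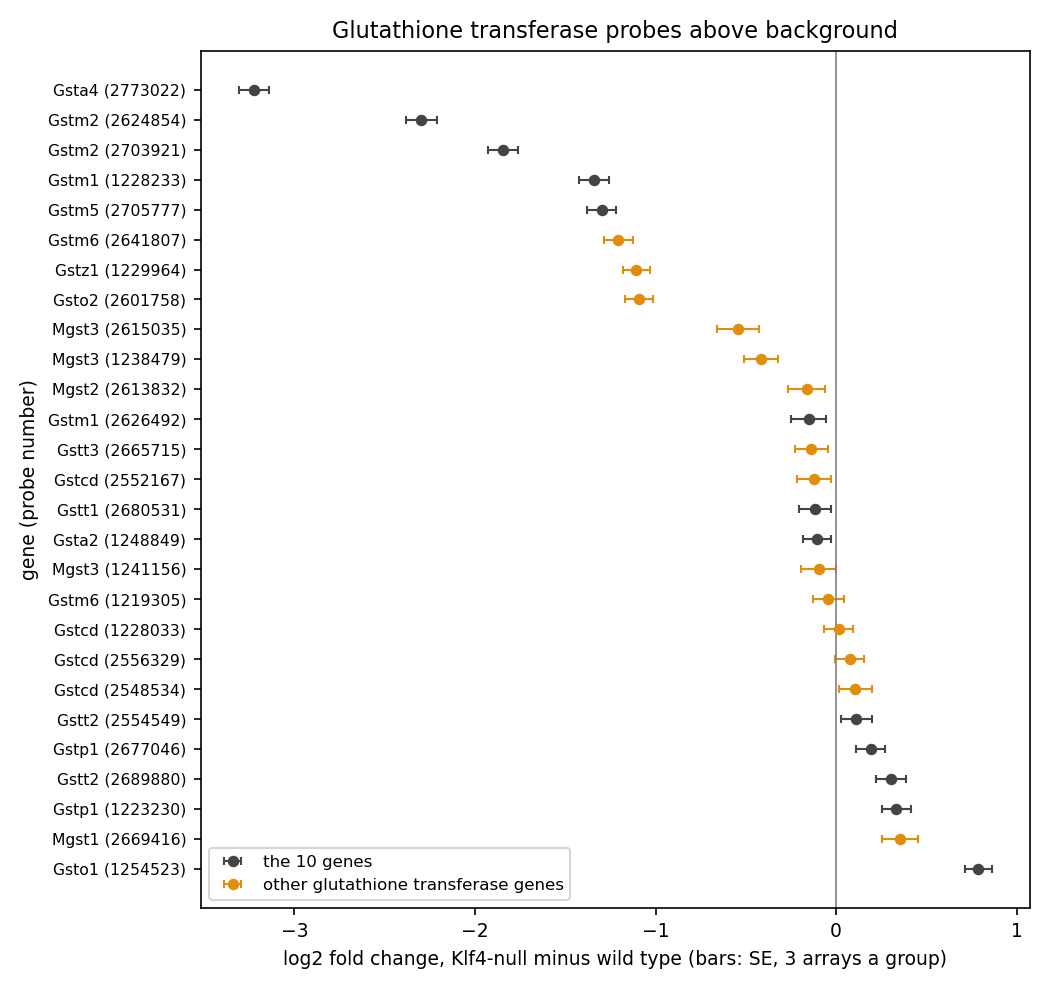
Log2 fold change, Klf4-null minus wild type, with its SE from 3 arrays a group (horizontal axis) for each measured probe of the 10 genes (dark) and of the other glutathione transferase genes (orange), from most negative at the top. Gsta4 and the Gstm2 probes stand at -3.23, -2.30 and -1.84, Gstm6, Gstz1 and Gsto2 lie between -1.21 and -1.09, and Gsto1 is at the bottom at 0.79.

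Of 10 measured genes that supply and turn over glutathione, 6 were higher and 2 lower in null cells, with a median log2 fold change of 0.56, against 19.3% of all measured genes higher, 20.6% lower and a median of -0.03. Chac1, a cytosolic enzyme that degrades glutathione, averaged 4715 ± 476 in null and 1200.4 ± 53.01 in wild-type cells (log2 fold change 1.97, SE 0.09, adjusted p = 3.9e-10). Slc7a11, the cystine importer that feeds glutathione synthesis, averaged 345 ± 30.1 in null and 116 ± 6.87 in wild-type cells with probe ILMN_2500300 (log2 fold change 1.57, SE 0.09, adjusted p = 4.3e-09). The Slc7a11 probes ILMN_2740738 (log2 fold change 1.75) and ILMN_2463432 (at least 1.68-fold, with no wild-type array above background) were higher too, and ILMN_1220015 did not pass (adjusted p = 0.280). Ggt7, of the gamma-glutamyl transferase family, was at least 2.03-fold higher, at 110 ± 4.82 in null and 49.3 ± 4.40 in wild-type cells, where no array was above background (adjusted p = 1.0e-07).

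Ggct, the gamma-glutamylcyclotransferase of glutathione turnover, was lower, at 145 ± 9.99 in null and 486 ± 60.2 in wild-type cells (log2 fold change -1.75, SE 0.10, adjusted p = 4.3e-09). Its other 2 probes were lower as well, ILMN_2766493 with a log2 fold change of -0.97 and ILMN_2694767, above background on no null array, by at least 1.25-fold. Gclm, the modifier subunit of the enzyme that limits glutathione synthesis, averaged 1776 ± 172 in null and 2074 ± 38.9 in wild-type cells and only just passed (log2 fold change -0.23, adjusted p = 0.0493). Its call was lost in 9 of 11 alternatives, whose adjusted p ran from 0.0187 to 0.227, among them leaving out null replicate 1 (0.111), null replicate 2 (0.227) and wild-type replicates 1 (0.101), 2 (0.0712) and 3 (0.107).

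Of 10 measured genes for the export of conjugates and the mercapturate steps that follow, 2 were higher and 4 lower, with a median log2 fold change of -0.05, against 19.3% of all measured genes higher and 20.6% lower. Without null replicate 1 or 2, or wild-type replicate 1 or 2, 1 was higher. Abcc4, an exporter of organic anions, averaged 451 ± 17.1 in null and 244 ± 35.7 in wild-type cells (log2 fold change 0.90, SE 0.10, adjusted p = 6.5e-06). Abcc5, a related exporter, averaged 196 ± 16.6 in null and 337 ± 33.6 in wild-type cells (log2 fold change -0.78, SE 0.09, adjusted p = 1.3e-05). Kyat3 and Kyat1, cysteine conjugate beta-lyases, were both lower, with log2 fold changes of -1.44 (adjusted p = 7.6e-09) and -0.56 (adjusted p = 7.4e-05).

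Among 13 measured genes that handle lipid aldehydes and epoxides, the substrates of alpha and mu transferases, 2 were higher and 4 lower, with a median log2 fold change of -0.13. The share called, 46.2%, compares with 39.9% of all measured genes. Cbr3, a carbonyl reductase, averaged 94.5 ± 17.0 in null and 706 ± 86.9 in wild-type cells (log2 fold change -2.91, SE 0.12, adjusted p = 2.2e-10). Glo1, which uses glutathione to clear methylglyoxal, was lower (log2 fold change -0.51, SE 0.08, adjusted p = 2.2e-04), as was Akr1b3, aldose reductase (log2 fold change -0.32, SE 0.09, adjusted p = 8.7e-03). The Akr1b3 call was lost when each probe's own variance was used (adjusted p = 0.0621, the highest of a range that began at 6.9e-03). Aldh2, the mitochondrial aldehyde dehydrogenase, averaged 4940.4 ± 374 in null and 2518 ± 334 in wild-type cells (log2 fold change 0.98, SE 0.10, adjusted p = 3.5e-06), and Akr1c14, a hydroxysteroid dehydrogenase, was at least 2.39-fold higher (adjusted p = 1.8e-08).

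Of 23 measured regulators and redox targets of Nrf2, 10 were higher and 1 was lower in null cells, with a median log2 fold change of 0.12. The share called, 47.8%, compares with 39.9% of all measured genes. When the probes of a gene were averaged, 3 in place of 1 were lower. Sqstm1, the autophagy receptor that binds Keap1, averaged 2838 ± 199.9 in null and 1496 ± 91.2 in wild-type cells (log2 fold change 0.92, SE 0.08, adjusted p = 8.1e-07). Nfe2l1, a transcription factor related to Nrf2, had a log2 fold change of 0.88 (SE 0.10, adjusted p = 6.2e-06), and that of Gpx1, a glutathione peroxidase, was 0.83 (SE 0.10, adjusted p = 9.3e-06). Osgin1, a growth inhibitor induced by oxidised lipids, was lower (log2 fold change -0.57, SE 0.08, adjusted p = 5.3e-05). Another 3 genes were named after their values had been seen, Nqo1 and Hmox1 as usual readouts of Nrf2 and Nfe2l2 as its own gene. Nqo1, the quinone reductase, averaged 599 ± 32.2 in null and 618 ± 11.0 in wild-type cells and did not pass with its brightest probe (log2 fold change -0.05, adjusted p = 0.702). Hmox1, haem oxygenase, was higher (log2 fold change 0.65, SE 0.10, adjusted p = 1.8e-04), and Nfe2l2, which encodes Nrf2, was higher (log2 fold change 0.27, adjusted p = 0.0327). Srxn1, sulfiredoxin, also named after its values had been seen, did not pass with its brightest probe (log2 fold change -0.15, adjusted p = 0.254), while its probes ILMN_2667346 (log2 fold change -1.17, adjusted p = 4.1e-07) and ILMN_1229994 (log2 fold change -0.67, adjusted p = 2.7e-05) were lower.

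Of 5 measured stress kinases and partners, 3 were higher and 1 was lower, with a median log2 fold change of 0.29, against 19.3% of all measured genes higher and 20.6% lower. Traf2, an adaptor of the tumour necrosis factor receptor, was higher (log2 fold change 0.39, adjusted p = 4.7e-03), as was Jun, the target of JNK (log2 fold change 0.37, adjusted p = 7.4e-03). Map2k4, a kinase of JNK, was higher (log2 fold change 0.29, adjusted p = 0.0223). Mapk8, which encodes JNK1, was lower with its brightest probe, ILMN_2760609 (log2 fold change -0.34, adjusted p = 0.0114). Its probe ILMN_2456617 only just passed (log2 fold change -0.23, adjusted p = 0.0446). The Mapk8 probes ILMN_1214761 (log2 fold change -0.19, adjusted p = 0.0943) and ILMN_1239233 (log2 fold change -0.15, adjusted p = 0.258) did not pass. When each probe's own variance was used, limma called 0 of the 5, although all 5 had an unadjusted p under 0.05. Without wild-type replicate 1 it called 2, since Map2k4 (adjusted p = 0.101) and Mapk8 (0.0540) were lost. The Map2k4 call was also lost without null replicate 1 (0.0893) or wild-type replicate 2 (0.0644), and the Mapk8 call without null replicate 3 (0.0639). Over all alternatives the adjusted p ran from 5.5e-03 to 0.126 for Map2k4, from 6.5e-03 to 0.102 for Mapk8, from 2.0e-03 to 0.0731 for Traf2 and from 7.6e-03 to 0.0923 for Jun.

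**Figure D4:**
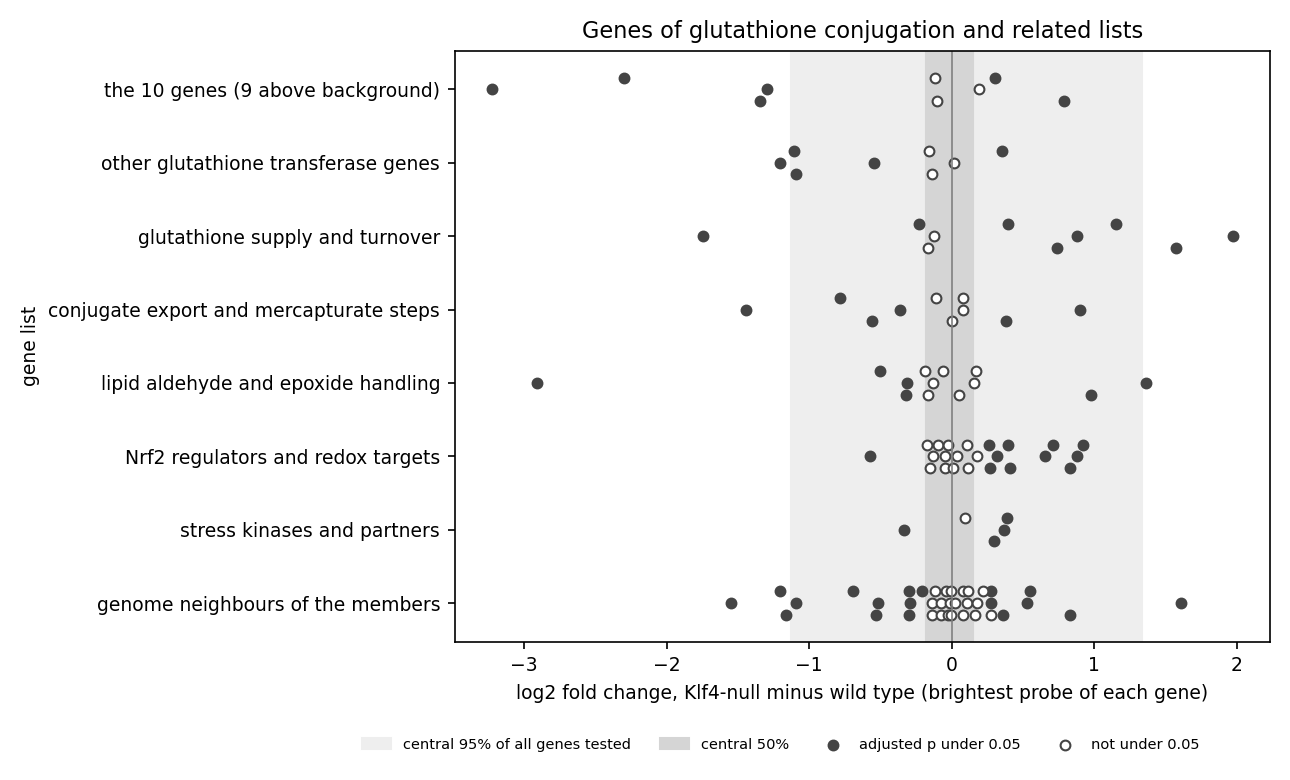
Log2 fold change, Klf4-null minus wild type, of the brightest probe of each measured gene (horizontal axis) in each list (rows). Points are filled where the adjusted p over all measured probes was under 0.05. The central 50% and 95% of all 16212 measured genes are shaded. The central 95% runs from -1.13 to 1.33. Gsta4, Gstm2, Gstm1 and Gstm5 in the top row and Ggct, Kyat3, Cbr3, Gstm6, Ogfrl1 and Sdhaf4 below it lie left of that range. Chac1, Slc7a11, Akr1c14 and C920006O11Rik lie right of it. The top row was chosen with its values known.

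The genes that flank the 10 transferases were not all alike. Of 37 flanking genes measured, up to 3 on each side of a gene, 7 were higher and 11 lower, a share of 48.6% called against 39.9% of all measured genes. Beside the mu cluster on chromosome 3, 3 of 7 were lower and 4 were not called, the lower ones including Gstm6. Beside Gsta2 and Gsta4 on chromosome 9, 3 of 6 were lower, among them the kinase gene Cilk1 (log2 fold change -0.52, adjusted p = 2.4e-04). The calls of the other 2 lower genes there were lost in 4 and 6 of 11 alternatives. The higher gene there, listed under the clone name C920006O11Rik, was at least 2.70-fold higher (adjusted p = 2.2e-09). Beside Gsta3 on chromosome 1, whose own probe was at background, 2 of 6 were lower and 1 higher. Ogfrl1 averaged 804 ± 19.8 in null and 2350.4 ± 129 in wild-type cells there (log2 fold change -1.55, SE 0.08, adjusted p = 1.5e-09), and Sdhaf4, an assembly factor of succinate dehydrogenase, was lower (log2 fold change -1.16, adjusted p = 6.4e-08).

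Around Gsto1 on chromosome 19, 2 of 6 were higher and 2 lower, the higher ones including Itprip, a protein that binds the IP3 receptor (log2 fold change 0.83, SE 0.09, adjusted p = 6.6e-06), and the lower ones Gsto2. Around Gstp1, on the same chromosome, 3 of 6 were higher and 1 lower, with Cdk2ap2 at a log2 fold change of 0.53 (SE 0.08, adjusted p = 1.1e-04). Around Gstt1 and Gstt2 on chromosome 10, 0 of 6 were called by limma at an adjusted p under 0.05, and 0 had an unadjusted p under 0.05. Leaving out single arrays, between 13 and 17 of the 37 flanking genes were called.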

How the data were processed

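Per the labels, total RNA of the 6 samples was extracted with Trizol, treated with DNase and converted to biotinylated cRNA for Illumina arrays. The authors deposited 1 linear, positive intensity per probe and array, already normalized between arrays, as shown by nearly equal medians. How they were normalized, and whether background was subtracted, is not stated in the labels or files. Another deposited table held 12 columns that match no sample's labels, so only its probe symbols were taken.

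Symbols were updated through RefSeq gene names of GRCm38.p6 (25438 current, 8747 synonyms, 12436 kept as deposited). Background on each array was the mode of its log2 intensities with the lower spread mirrored, and the floor was its 95th percentile. Probes above it on at least 3 of 6 arrays were tested (21824 probes, 16212 genes by brightest probe). Klf4-null was compared with wild type on log2 values with limma 3.58.1 (lmFit, eBayes) in R 4.3.3, 2-sided and without covariates. Benjamini-Hochberg adjustment ran over all probes tested, and counts of genes used the adjusted p of each gene's brightest probe. Only the alternative that averaged the probes of a gene was adjusted over genes. Where a group had no array above background, the ratio is a lower bound ("at least") against the floor or the signal, whichever is higher. The procedure was tested on simulated data, and the number of arrays limits its precision. Promoters were searched in Python 3.11.15 and aligned with Biopython 1.88.

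The 10 genes and all lists were chosen with earlier results of these data known, so their counts are no independent support. From each list the text names up to 3 genes in each direction by size of log2 fold change among those past the threshold, all measured other transferases, up to 2 flanking genes per locus, and 3 genes resembling Gsta4. Alternatives changed the filter, variance, background correction, replicate block, probe choice and each sample in turn. Some genes that this rule takes are not reported here.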

Additional observations from a re-analysis of the deposited data

How the results depend on the processing

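The count of member probes called was 8, and it was 8 without a filter on dim probes, 7 with a filter asking for all 6 arrays, 7 with each probe's own variance, 9 after normexp correction (offset 50) with quantile normalization, and 7 to 8 when single arrays were left out. The log2 fold changes of the members kept their direction under the alternatives run for them. Replicate numbers did not pair the samples, since the correlations of same-numbered deviations were -0.02, 0.05 and -0.23 and 0 of the 3 numbers were best matched with themselves. With the replicate block, 8053 of 21824 probes were called against 8487 without it, and 8 member probes were called. Over all probes, the count was 6115 with each probe's own variance and 7179 to 8254 when single arrays were left out. Of the other glutathione transferase genes, 3 were called with the filter on all 6 arrays and 3 with each probe's own variance, against 5. Of the glutathione supply genes, 5 were called with the filter on all 6 arrays, where fewer genes are tested, against 8. Of the stress kinases and partners, 0 were called with each probe's own variance (limma; 5 at an unadjusted p under 0.05) and 2 to 4 when single arrays were left out, against 4. Of 43 genes named outside the members, 28 kept their call in every alternative run for them and 15 lost it in at least 1. Taking the mean of a gene's probes changed no list's total by over 1.5 times, but it made 3 in place of 1 of the Nrf2 list lower and 1 in place of 2 of the export list higher. A filter on the deposited detection p-values was not run, because those columns match no sample. After subtraction of the array mode, added after the data had been seen, 5 of 10 member ratios moved by more than the spread between replicates. The deposited values may still hold background, and ratios of dim probes are then too small.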
